A study of Mus musculus with 2 samples.

Results

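The genes described here drive the cell through DNA replication and mitosis, and 49 of them were chosen by name. Of the 49, 48 had at least 1 probe set annotated to that gene alone, and 47 could be measured, with a signal that reached 100 for Fbln5-/- or WT at 1 or more of these probe sets. On the chip as a whole 11934 genes met the same condition. The 49 comprise 20 genes of S phase (19 measured), 25 genes of G2 phase and mitosis (24 measured) and 4 regulators of G1 phase (4 measured). RNA from whole vagina was hybridised to Affymetrix mouse expression arrays, with 1 array for Fbln5-/- and 1 array for WT. Both samples came from female C57/Bl6 mice with an age of 6 months, which had been ovariectomized and then given estradiol at 50 µg/kg/d for 3 d. The Fbln5-/- sample carried the deletion of fibulin-5, a protein of elastic fibers, and the WT sample did not. The time of ovariectomy is given as 11 d in the sample labels and as 2 weeks in the series description, and the methods name 2 animals in each genotype for 1 array each, without saying whether their RNA was combined. With 1 array per genotype there were no replicates, so that no test, error or p-value could be given, and every difference below compares these arrays rather than the genotypes.

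Cells of the basal layer of the vaginal epithelium divide when estrogen is present, and their daughters are pushed up and keratinize. On entry into S phase, E2F factors switch on the genes that license origins, build the replication fork and supply deoxynucleotides. Later, in G2 phase, the complex of B-MYB, MuvB and FOXM1 switches on genes for cyclin B, mitotic kinases, the spindle and the kinetochore, many of which carry a CHR element (cell cycle genes homology region) near the start of transcription. Transcripts of both groups are scarce in resting cells, and they serve as markers of dividing cells in whole tissue.

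The promoters of 6 members are shown because promoter elements are known to time such genes, and because 5 of the 6 belong to members with a large difference at some probe set. *Ube2c*, *Mad2l1* and *Plk1* were the mitotic members that were at least 2-fold lower on the Fbln5-/- array, *Ccnb2* was a mitotic member with little difference, and *Rrm1* and *Mcm3* were S-phase members whose probe sets disagreed. The sequences are from RefSeq on GRCm38.p6, run 5′ to 3′ along the gene, and cover 250 bases before the start of transcription and 50 bases after it. Capitals mark matches to TTTGAA (the CHR element), to CCAAT (the CCAAT box, bound by NF-Y) and to the E2F letters (TTCCCGC, or else TTCGCGC, or else TTGCCGC, or else TTGGCGC), on either strand, and overlapping matches run together.
Ube2c promoter (chr2:164769679-164769978, plus strand): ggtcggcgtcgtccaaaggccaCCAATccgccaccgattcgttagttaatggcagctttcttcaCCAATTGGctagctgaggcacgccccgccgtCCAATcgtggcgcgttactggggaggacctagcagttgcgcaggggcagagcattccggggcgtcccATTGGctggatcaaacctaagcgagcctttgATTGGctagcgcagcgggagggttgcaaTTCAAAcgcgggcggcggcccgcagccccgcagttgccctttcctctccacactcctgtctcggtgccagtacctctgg
Mad2l1 promoter (chr6:66534971-66535270, plus strand): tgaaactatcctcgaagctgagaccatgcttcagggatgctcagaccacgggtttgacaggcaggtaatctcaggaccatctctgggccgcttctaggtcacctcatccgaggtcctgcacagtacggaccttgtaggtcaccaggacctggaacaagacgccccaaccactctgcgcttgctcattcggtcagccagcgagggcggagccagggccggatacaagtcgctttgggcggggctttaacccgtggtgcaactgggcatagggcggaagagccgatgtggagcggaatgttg
Plk1 promoter (chr7:122159185-122159484, plus strand): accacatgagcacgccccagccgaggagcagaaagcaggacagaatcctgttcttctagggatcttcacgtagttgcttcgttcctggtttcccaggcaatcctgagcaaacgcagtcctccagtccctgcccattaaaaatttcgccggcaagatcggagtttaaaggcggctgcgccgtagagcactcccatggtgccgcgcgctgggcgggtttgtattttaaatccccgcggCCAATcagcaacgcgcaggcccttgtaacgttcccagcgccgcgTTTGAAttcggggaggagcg
Ccnb2 promoter (chr9:70421505-70421804, minus strand): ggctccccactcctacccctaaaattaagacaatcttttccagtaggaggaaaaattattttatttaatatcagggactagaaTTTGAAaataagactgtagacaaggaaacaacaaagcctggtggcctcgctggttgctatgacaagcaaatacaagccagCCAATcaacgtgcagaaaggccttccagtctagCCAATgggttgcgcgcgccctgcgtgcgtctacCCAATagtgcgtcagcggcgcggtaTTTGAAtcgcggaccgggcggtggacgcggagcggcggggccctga
Rrm1 promoter (chr7:102441445-102441744, plus strand): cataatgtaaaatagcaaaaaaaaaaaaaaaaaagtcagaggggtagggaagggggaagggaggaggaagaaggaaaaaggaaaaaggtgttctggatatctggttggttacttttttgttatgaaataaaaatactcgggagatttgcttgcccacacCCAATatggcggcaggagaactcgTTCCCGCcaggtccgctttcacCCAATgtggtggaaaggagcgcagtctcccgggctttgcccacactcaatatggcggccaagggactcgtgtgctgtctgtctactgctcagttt
Mcm3 promoter (chr1:20820263-20820562, minus strand): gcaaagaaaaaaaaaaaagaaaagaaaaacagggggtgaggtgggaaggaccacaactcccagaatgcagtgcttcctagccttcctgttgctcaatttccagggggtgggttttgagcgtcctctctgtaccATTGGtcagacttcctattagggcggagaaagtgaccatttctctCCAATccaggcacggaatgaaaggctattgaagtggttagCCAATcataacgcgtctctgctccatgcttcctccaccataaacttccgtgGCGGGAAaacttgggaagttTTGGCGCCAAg
In *Ube2c* the CHR letters began 29 bases before the start, on the opposite strand, and 6 CCAAT boxes, on either strand, lay upstream of them. Among these boxes the stretch CCAATTGG was counted on each strand. The *Plk1* window held 1 CCAAT box, beginning 14 bases before the start, with the CHR letters after the start. *Ccnb2* had 3 CCAAT boxes, which began 87, 54 and 21 bases before the start, and 2 CHR matches. No match to any of the letters searched was found in the *Mad2l1* window. *Rrm1* had 1 match to the E2F letters and 2 CCAAT boxes, and *Mcm3* had 3 matches to the E2F letters and 3 CCAAT boxes. Among the *Mcm3* matches the stretch TTGGCGCCAA was counted on each strand.

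Promoter entries were found for 38 of the 49 genes. Of 19 promoters of mitotic members, 13 (68.4%) held TTTGAA and 16 (84.2%) held CCAAT, against 17.9% and 37.4% of all 32851 promoters. Of 18 promoters of S-phase members, 1 (5.56%) held TTTGAA and 11 (61.1%) held CCAAT. The E2F letters were in 12 of the 18 S-phase promoters (66.7%) and in 3 of the 19 mitotic promoters (15.8%), against 9.57% of all promoters. The S-phase and mitotic members thus differed in the letters their promoters held as well as in their roles. TTTGAA was in 2 of the 3 mitotic members that were at least 2-fold lower on the Fbln5-/- array and in 11 of the 15 other measured mitotic members with a promoter entry. A match is a description of the sequence only.

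The samples were first examined by the targeted gene and by markers of the tissue. *Fbln5* had a scaled signal of 30.4 on the Fbln5-/- array and 410.4 on the WT array at 1 probe set, at least 4.10-fold lower. Whether that probe set lies in the deleted part was not tested, and a second was under 100 on both arrays. All signals here were scaled to a common median, are in arbitrary units and cannot be set against each other between probe sets. Signals under 100 are treated as not measurable, and a fold in which 1 signal was under 100 is a bound, computed against 100. The basal keratinocyte genes were plainly present: *Krt5* had signals of 16059 for Fbln5-/- and 16102 for WT, and *Trp63*, the basal transcription factor p63, had 7115 and 6103. None of the 8 basal genes differed by 2-fold, and their summed signal was 72813 for Fbln5-/- and 65389 for WT. *Krt14* (1.43-fold higher) made the largest part of the difference between these sums. The log2 ratios of the 8 ran from −0.16 (*Itgb4*) to 0.52 (*Krt14*), and 3 were under 0. In whole tissue, fewer dividing cells and less RNA per cell cannot be told apart.

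Most replication genes had nearly the same signal on both arrays. Of 19 measured, 18 were within 2-fold and 17 within 1.5-fold, 11 had a log2 ratio of Fbln5-/- over WT under 0, and 1 was at least 2-fold lower (5.26%). Across all 11934 genes measured, 4.77% were at least 2-fold lower, 7.21% were at least 2-fold higher, 69.6% were within 1.5-fold and 36.4% had a log2 ratio under 0. The median log2 ratio of S-phase members was −0.02, beside 0.16 for all genes measured. Each gene is given by its brightest probe set, by the mean of both arrays, unless another is named.

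The origin is licensed in G1 phase, when CDC6 and CDT1 load the MCM2-7 helicase. *Cdt1* had the highest ratio of the S-phase members, with a signal of 2393 on the Fbln5-/- array and 1584 on the WT array (1.51-fold higher), and its other probe set past the filter gave 1126 and 815.7 (1.38-fold higher). *Cdc6* had 178.9 for Fbln5-/- and 139.4 for WT, a log2 ratio of 0.36 close to the limit of 100. All 6 helicase subunits were within 1.5-fold, with log2 ratios between −0.20 (*Mcm3*) and 0.37 (*Mcm2*) and a median of 0.06, which turned to −0.04 when the arrays were scaled so that the well-measured probe sets had a median ratio of 1, and to −0.02 on the deposited scale. *Mcm5* had signals of 4232 for Fbln5-/- and 4255 for WT, and *Mcm6* had 2694 and 2747. *Mcm4* had 3483 for Fbln5-/- and 2870 for WT, and *Mcm7* had 3745 and 3417. The subunits of this ring therefore lay near the median of all genes at these probe sets, some above it and some below.

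At the fork, PCNA is the sliding clamp, RFC4 a subunit of the loader that opens it, GINS2 a part of the active helicase, and POLA1 and PRIM1 the catalytic subunits of polymerase α and primase. *Pcna* had a signal of 8318 on the Fbln5-/- array and 8682 on the WT array (log2 ratio −0.06). *Pola1* had 531.8 for Fbln5-/- and 523.5 for WT, *Prim1* had 1549 and 1605, and *Rfc4* had 498.2 and 504.5. *Gins2* had 365.4 for Fbln5-/- and 411.4 for WT (log2 ratio −0.17). The 5 fork genes were thus near equal at the brightest probe sets. A second probe set was measured only for *Prim1*, *Rfc4* and *Gins2*, and there the signals were farther apart. That of *Prim1* gave 864.6 for Fbln5-/- and 1295 for WT (log2 ratio −0.58), and that of *Rfc4* gave 245.7 for Fbln5-/- and 324.0 for WT (log2 ratio −0.40). The second *Gins2* probe set ran the other way, with 246.4 for Fbln5-/- and 200.5 for WT (log2 ratio 0.30).

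At their brightest probe sets the measured enzymes of deoxynucleotide supply had log2 ratios between −0.42 and −0.11. *Rrm2*, the regulated subunit of ribonucleotide reductase, had signals of 3592 for Fbln5-/- and 3888 for WT (log2 ratio −0.11). Its other probe sets gave 1538 for Fbln5-/- and 1602 for WT (−0.06), and 1301 for Fbln5-/- and 2191 for WT (1.68-fold lower). *Rrm1*, the large subunit of ribonucleotide reductase, had a log2 ratio of −0.15 at its brightest probe set and −2.51 at another, described below. *Tk1*, the S-phase thymidine kinase, had 804.7 for Fbln5-/- and 1075 for WT (log2 ratio −0.42) at its 1 probe set. *Tyms*, thymidylate synthase, was not measured, since its 4 probe sets were under 100 on both arrays. A further probe set is annotated to *Tyms* and a pseudogene together and gave 715.2 for Fbln5-/- and 1176 for WT, which cannot be assigned to either.

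The regulators of S-phase entry did not run together. *Ccne1*, an E-type cyclin that activates CDK2, had a signal of 353.1 on the Fbln5-/- array and 287.2 on the WT array (log2 ratio 0.30). *Ccne2*, the other E-type cyclin, had 262.7 for Fbln5-/- and 206.9 for WT (log2 ratio 0.34). *E2f1*, the factor that activates many genes of this list, had 122.0 for Fbln5-/- and 294.3 for WT at its brightest probe set, 2.41-fold lower and the 1 S-phase member past 2-fold. At its other measured probe set *E2f1* had 174.4 for Fbln5-/- and 143.7 for WT, 1.21-fold higher. The direction of *E2f1* thus depended on the probe set.

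**Figure D1:**
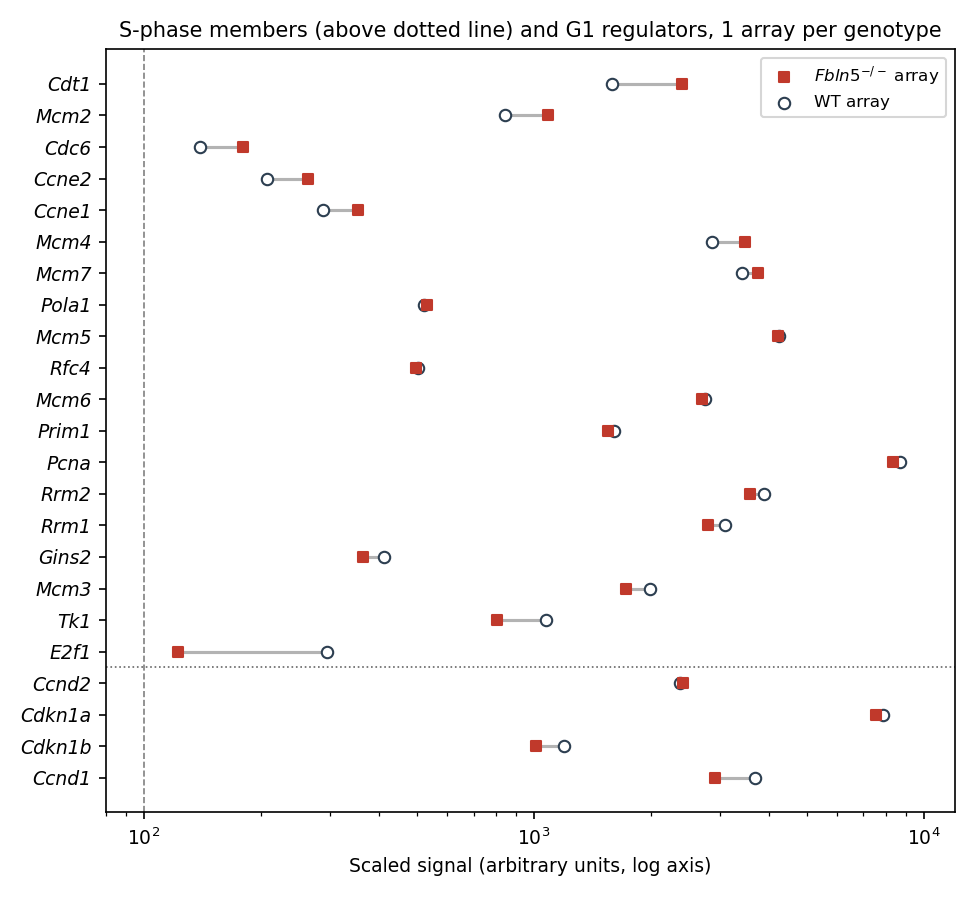
Scaled signal (log axis, arbitrary units) of 19 S-phase members and, under the dotted line, 4 G1 regulators, at the brightest probe set. Red squares are the Fbln5-/- array and open circles the WT array, 1 array each, and the dashed line marks a signal of 100. Squares and circles lie close together for most genes, and *E2f1* (122.0 for Fbln5-/- and 294.3 for WT) has the longest gap.

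Among the mitotic members a larger share than among the S-phase members had lower signals on the Fbln5-/- array. Of 24 measured, 17 had a log2 ratio under 0 (70.8%), 3 were at least 2-fold lower (12.5%) and 1 lay past 2-fold on the higher side (4.17%), against the 36.4%, 4.77% and 7.21% of all genes given above. The median log2 ratio was −0.16, and relative to the median of all genes it was −0.31, against −0.18 for S-phase members. Of the 52 other mitotic genes measured, described below, 51.9% had a log2 ratio under 0, beside 57.9% of the S-phase members. The larger share was thus not seen among these other genes. Whether the S-phase and mitotic members differed beyond the spread between animals could not be tested.

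The 3 lower genes act at the exit from metaphase or at the entry into mitosis. *Ube2c*, the E2 enzyme that works with the anaphase-promoting complex to mark cyclin B for destruction, had a signal of 991.0 on the Fbln5-/- array and 4049 on the WT array (1452954_at), 4.09-fold lower. *Mad2l1*, the MAD2 protein of the spindle checkpoint that holds that complex in check, had 1282 for Fbln5-/- and 3450 for WT (1422460_at), 2.69-fold lower. *Plk1*, polo-like kinase 1, had 530.8 for Fbln5-/- and 1206 for WT (1448191_at), 2.27-fold lower. Each of the 3 is represented by a single probe set, so that none could be compared with a second reading of the same gene. Of the 15 mitotic members with 1 measured probe set, 3 were at least 2-fold lower, and of the 9 with several, none was by its brightest. Over the chip, 6.12% of 7041 genes with 1 measured probe set were at least 2-fold lower and 8.42% at least 2-fold higher. Of the 4893 genes with several, 2.82% were at least 2-fold lower by the brightest, so that few or none would be looked for among 9.

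Partners of these genes were closer to equal. *Cdc20*, the activator of the anaphase-promoting complex, had signals of 5600 for Fbln5-/- and 5470 for WT (log2 ratio 0.03), and its 2 other probe sets had log2 ratios of 0.05 and −0.27. The checkpoint kinases *Bub1*, *Bub1b* (BUBR1) and *Ttk* (MPS1) had log2 ratios of −0.12, −0.37 and −0.14. Of the Aurora kinases, *Aurka*, which works at centrosomes with its activator TPX2, had 387.7 for Fbln5-/- and 706.2 for WT (1.82-fold lower, 1 probe set). *Aurkb*, the kinase of the chromosomal passenger complex, had 438.3 for Fbln5-/- and 621.8 for WT, and its 2 probe sets gave log2 ratios of −0.50 and −0.47. *Birc5*, survivin of the same complex, had 1965 for Fbln5-/- and 2661 for WT (log2 ratio −0.44). By their brightest probe sets the mitotic kinases among the members were thus all lower on the Fbln5-/- array, *Plk1* alone by more than 2-fold. For *Bub1* and *Ttk* the difference was slight. Among mitotic kinases outside the members, *Nek2* and *Melk* were higher (log2 ratios 0.52 and 0.28), and *Cit* was near equal (−0.06).

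Among cyclins and their kinase, *Ccna2* had the same ratio at both of its probe sets, with signals of 1427 for Fbln5-/- and 2379 for WT at one (log2 ratio −0.74) and 1399 and 2316 at the other (−0.73). Cyclin A acts in S phase as well as in G2 phase. *Cdk1*, the main mitotic kinase, had 1741 for Fbln5-/- and 2332 for WT (log2 ratio −0.42), and *Ccnb2*, a B-type cyclin, had 1383 and 1554 (−0.17). *Ccnb1* had no probe set annotated to it alone and was not measured. *Cdc25c*, the phosphatase that activates CDK1, had 167.1 for Fbln5-/- and 153.2 for WT, near the limit of 100. *Foxm1*, the transcription factor of this program, was the 1 mitotic member past 2-fold in the other direction, with 635.0 for Fbln5-/- and 314.0 for WT (2.02-fold higher). Its other measured probe sets gave 336.4 for Fbln5-/- and 235.7 for WT (1.43-fold higher), and 107.2 for Fbln5-/- and 175.4 for WT (1.64-fold lower). The 2.02-fold difference fell under 2-fold with each of the other scalings tried (log2 ratio between 0.91 and 0.97).

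Spindle and chromosome genes were close to even. The mitotic motors *Kif11*, *Kif20a* and *Kif23* had log2 ratios of −0.21, −0.05 and −0.31, and the microtubule proteins *Tpx2* and *Nusap1* had 0.09 and 0.11. *Cenpa*, the histone H3 variant of centromeres, had signals of 1299 for Fbln5-/- and 1412 for WT, and *Cenpe*, a kinetochore motor, had 459.0 and 387.8. *Top2a*, the topoisomerase that untangles sister chromatids, had 2990 for Fbln5-/- and 3111 for WT (log2 ratio −0.06). *Mki67*, which encodes the Ki-67 marker of cycling cells, had 2776 for Fbln5-/- and 2122 for WT (1.31-fold higher). None of these spindle and chromosome genes differed by 1.5-fold at its brightest probe set, and the common proliferation markers *Mki67*, *Top2a* and *Pcna* did not share a direction.

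**Figure D2:**
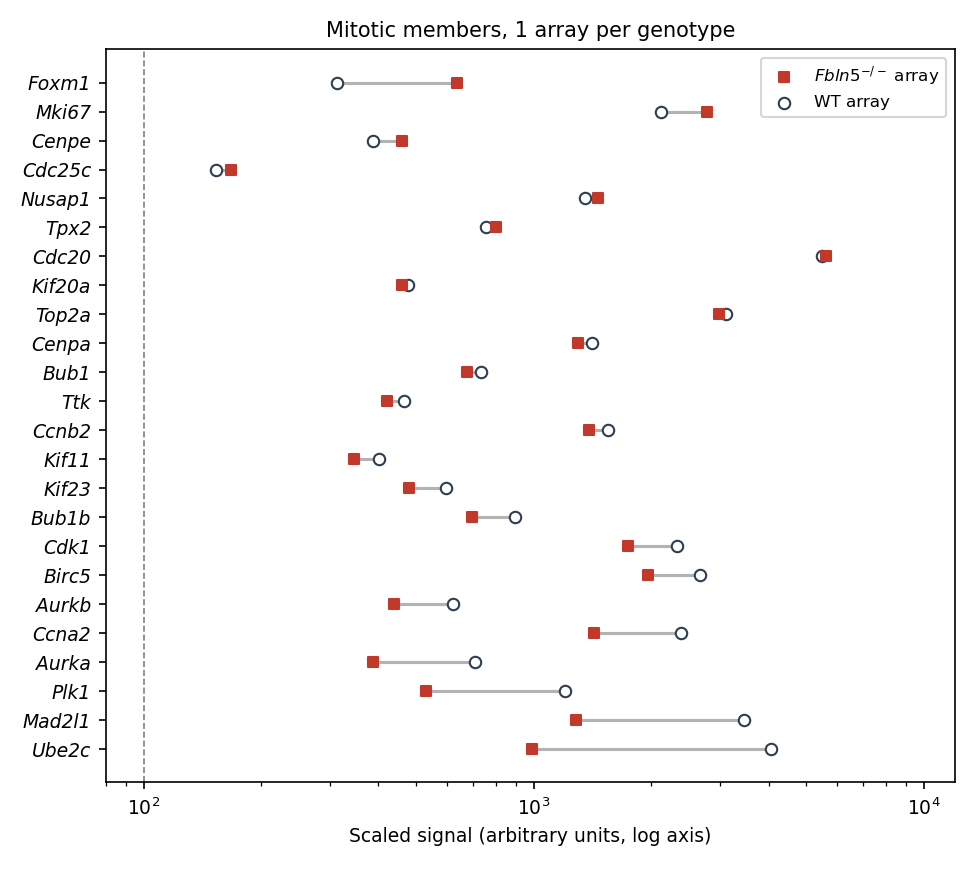
Scaled signal (log axis, arbitrary units) of 24 mitotic members at the brightest probe set, ordered by the ratio between arrays. Red squares are the Fbln5-/- array and open circles the WT array, 1 array each. The longest gaps are those of *Ube2c* (991.0 for Fbln5-/- and 4049 for WT), *Mad2l1* (1282 for Fbln5-/- and 3450 for WT) and *Plk1* (530.8 for Fbln5-/- and 1206 for WT), and *Foxm1* (635.0 for Fbln5-/- and 314.0 for WT) is the only one of the 24 past 2-fold on the other side.

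D-type cyclins respond to growth signals and start the phosphorylation of RB, while p21 and p27 inhibit cyclin-dependent kinases. The inhibitors were nearly equal: *Cdkn1a* (p21) had signals of 7536 on the Fbln5-/- array and 7839 on the WT array (log2 ratio −0.06), and *Cdkn1b* (p27) had 1011 and 1195 (−0.24). *Ccnd1* had 2917 for Fbln5-/- and 3691 for WT (log2 ratio −0.34) and *Ccnd2* had 2416 and 2372 (0.03) at the brightest probe sets. For the cyclins the other probe sets told differently. *Ccnd1* gave 4141 for Fbln5-/- and 2280 for WT at a second probe set (log2 ratio 0.86) and 226.5 and 368.6 at its dimmest (−0.70). The 4 other measured *Ccnd2* probe sets were all lower on the Fbln5-/- array, with log2 ratios of −0.56, −0.73, −0.88 and −1.15. None of the 4 regulators was past 2-fold at its brightest probe set, and the *Ccnd1* probe sets did not share a direction.

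The 48 genes had 113 probe sets of their own, of which 88 were measured and 25 were under 100 for both genotypes. Of the 88, 8 were at least 2-fold lower (9.09%) and 1 lay past 2-fold on the higher side (1.14%) with Fbln5-/- over WT, against 8.65% and 6.29% of the 19627 measured probe sets of single genes on the chip. The share of lower probe sets was thus close to that of the chip, and the share of higher ones was under it. A log2 ratio under 0 was found at 57 of the 88 (64.8%), against 42.1%. By role, the 8 were 3 of 39 S-phase probe sets (*E2f1*, *Rrm1* and *Mcm3*), 4 of 38 mitotic ones (*Ube2c*, *Mad2l1*, *Plk1* and *Kif11*) and 1 of 11 for G1 regulators (*Ccnd2*). For *Kif11* this rests on a signal under 100 for Fbln5-/-, and the bound given below is under 2-fold.

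Of the 26 members with several measured probe sets, 8 had probe sets that lay more than 1 apart on the log2 scale (30.8%), which equals the 30.8% of the 4893 such genes on the chip. The 8 genes were *Rrm1*, *Mcm3*, *Foxm1*, *Ccnd1*, *E2f1*, *Kif11*, *Mcm2* and *Ccnd2*. *Rrm1* had 2791 for Fbln5-/- and 3095 for WT at its brightest probe set, 1415878_at (log2 ratio −0.15). At 1448127_at, which is listed with the same accession, it had 379.1 for Fbln5-/- and 2162 for WT, 5.70-fold lower. *Mcm3* had 1725 for Fbln5-/- and 1986 for WT at its brightest probe set and log2 ratios of −0.29, −0.41 and −0.59 at 3 others, of which the −0.41 rested on a signal of 78.7 for Fbln5-/- and 104.3 for WT. At the remaining 1, 1426653_at, it had 61.9 for Fbln5-/- and 329.9 for WT, at least 3.30-fold lower. A single probe set of each gene thus carried the large difference, while the rest were within 2-fold.

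The remaining cases were smaller. *Kif11* had 346.7 for Fbln5-/- and 400.9 for WT at its brightest probe set, 364.5 and 338.3 at a second, and 80.9 and 189.5 at the dimmest (at least 1.90-fold lower). *Mcm2* had 1088 for Fbln5-/- and 843.6 for WT at its brightest probe set and 575.9 and 1035 at the other, with log2 ratios of 0.37 and −0.85. No member with several measured probe sets had all of them at least 2-fold lower or all at least 2-fold higher. Of the 26, 12 were below 0 at every measured probe set, 4 above 0 at every one, and 10 had both signs. The members above 0 throughout, at the scaling used, were *Cdt1*, *Ccne1*, *Mcm4* and *Tpx2*. Where both signals were 100 or more, the log2 ratios of a member's probe sets had a within-gene SD, pooled over 24 genes, of 0.52, and the same SD pooled over 4114 genes of the chip was 0.52.

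Control probe sets along *Gapdh* and *Actb* differed between the arrays toward the 5′ end of the transcript. The *Gapdh* signal was 13829 for Fbln5-/- and 13329 for WT at the 3′ end, and 794.7 and 17262 at the 5′ end. In the middle of *Gapdh* it was 7058 for Fbln5-/- and 15720 for WT, 2.23-fold lower. That of *Actb* was 11845 for Fbln5-/- and 13392 for WT at the 3′ end, and 2513 and 9200 at the 5′ end. In the middle of *Actb* it was 4090 for Fbln5-/- and 9536 for WT, 2.33-fold lower. The positions of the members' probe sets along their transcripts were not analysed here, and the part of this difference in the lower values of single probe sets, those of *Ube2c*, *Mad2l1* and *Plk1* included, was not tested.

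**Figure D3:**
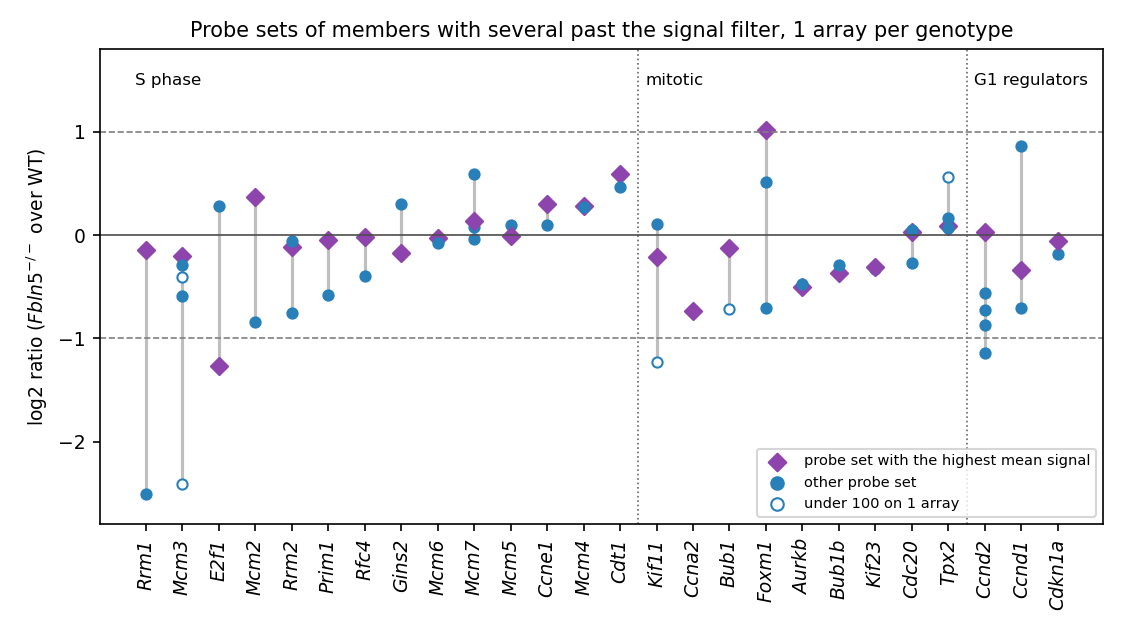
Ratio of Fbln5-/- to WT on the log2 scale for every measured probe set of the 26 members that have several, by role. Purple diamonds are the brightest probe set, blue circles the others, open circles probe sets under 100 on 1 array, plotted as measured, and dashed lines mark 2-fold. Single probe sets of *Rrm1* (−2.51) and *Mcm3* (−2.41) lie far under the others of the same gene, and *E2f1*, *Mcm2*, *Foxm1* and *Ccnd1* have probe sets on both sides of 0.

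Genes of the same machinery outside the 49 were set beside them. Of 41 other replication genes measured, 2 were at least 2-fold lower on the Fbln5-/- array (4.88%) and none was at least 2-fold higher. For all genes measured these shares were 4.77% and 7.21%, so that the share of lower genes was that of the chip. The median log2 ratio of the 41 was 0.07. The 2 were *Pola2*, the accessory subunit of polymerase α, with 111.8 for Fbln5-/- and 377.8 for WT (1 probe set), and *Pold1*, the catalytic subunit of polymerase δ, with 262.1 and 528.9. The second *Pold1* probe set gave 290.1 for Fbln5-/- and 299.2 for WT. Of 52 other mitotic genes measured, none differed by 2-fold, 27 had a log2 ratio under 0 (51.9%, against 36.4% of all genes), and the median was −0.01. These 52 ran from 1.89-fold lower (*Gtse1*, 147.7 for Fbln5-/- and 279.8 for WT, 1 probe set) to 1.64-fold higher (*Cenpn*). None was therefore as low as *Ube2c*, *Mad2l1* or *Plk1*, although *Gtse1* was not far from *Plk1* (2.27-fold lower).

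Of 23 other regulators of G1 phase measured, 2 were at least 2-fold lower and 2 at least 2-fold higher (8.70% each, against 4.77% and 7.21% of all genes). Their median log2 ratio was 0.28, or 0.20 with signals under 100 raised to 100. *Cdkn2d*, the kinase inhibitor p19, had 224.0 for Fbln5-/- and 787.6 for WT, and *E2f4*, an E2F factor of repressor complexes, had 389.2 and 914.9, each at 1 probe set. *Rb1*, the retinoblastoma protein, had 3297 for Fbln5-/- and 1542 for WT (2.14-fold higher, 1 probe set). *Tfdp2*, a partner of E2F factors, had 669.0 for Fbln5-/- and 204.7 for WT (3.27-fold higher), and its other probe sets gave 387.1 and 320.5, and 103.6 and 94.0.

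**Figure D4:**
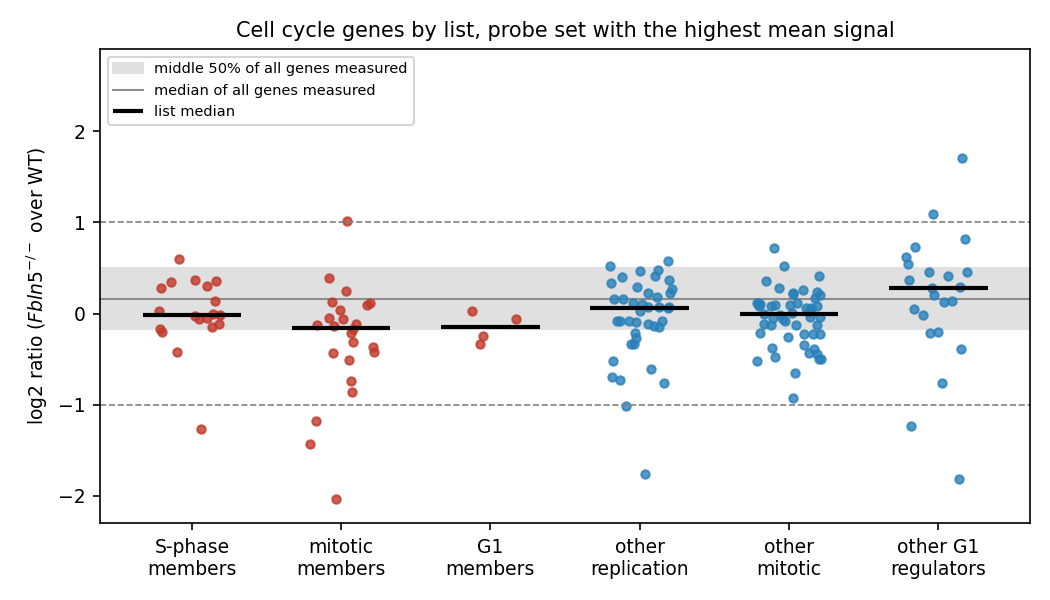
Ratio of Fbln5-/- to WT on the log2 scale for each measured gene at its brightest probe set, for the S-phase, mitotic and G1 members (red) and for other genes of the same machinery (blue). Black bars are list medians (−0.02, −0.16, −0.15, 0.07, −0.01 and 0.28 from left to right), the grey line and band are the median (0.16) and middle 50% of all genes measured, and dashed lines mark 2-fold.

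Markers of other cells of the vaginal wall were also compared. The 5 fibroblast genes had a summed signal of 56537 for Fbln5-/- and 44937 for WT, and none was past 2-fold. The 7 smooth muscle genes had 34419 for Fbln5-/- and 35081 for WT, again with none past 2-fold. Most of that sum came from *Acta2* (16566 for Fbln5-/- and 15045 for WT) and *Tagln* (9459 for Fbln5-/- and 9582 for WT), while *Des*, *Cnn1* and *Smtn* had log2 ratios of −0.63, −0.56 and −0.61. Of 13 suprabasal genes, 2 were at least 2-fold higher, *Flg* (2781 for Fbln5-/- and 678.7 for WT) and *Ivl* (1341 for Fbln5-/- and 520.9 for WT), with summed signals of 169042 for Fbln5-/- and 144878 for WT. Of 7 adipocyte genes 3 were measured and all 3 were at least 2-fold higher, with summed signals of 10574 for Fbln5-/- and 2729 for WT, while *Lep*, *Cidec* and *Pparg* were under 100 on both arrays. Of 8 lymphocyte genes 5 were measured, and 2 of them, the B-lineage genes *Cd79a* (144.0 for Fbln5-/- and 7.78 for WT) and *Mzb1* (296.0 for Fbln5-/- and 82.5 for WT), were at least 1.44-fold and 2.96-fold higher against 100. *Ptprc*, a marker of all leukocytes, had a log2 ratio of 0.18, beside a median of 0.16 for all genes measured. The T cell genes were lower, with log2 ratios of −0.07 for *Cd3g* and −0.64 for *Cd3e* (76.1 for Fbln5-/- and 118.8 for WT). The part of these differences in the members' values was not tested.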

How the data were processed

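The authors deposited MAS5 signal intensities for 45101 probe sets, per the labels and values, on a linear scale and already scaled per array: with the lowest and highest 2% of probe sets trimmed, the mean was 500.0 on both arrays. The MAS5 version is not given in the sources used here. Detection calls were not used here. The signals of each array were multiplied to reach the same median (factors 1.03 for Fbln5-/- and 0.972 for WT), after the 50th percentile normalization of the methods, and 1 signal of 0 was replaced by 0.1. A probe set was measured if its signal reached 100 for either genotype, and 64 control probe sets were left out. Deposited intensities were under 100 for 55.9% of probe sets on the Fbln5-/- array and 54.8% on the WT array.

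Of the probe sets, 34958 had 1 gene symbol in the platform annotation, 932 several and 9211 none, and 34754 matched the GRCm38.p6 gene table. Probe sets with several symbols named no gene. A gene was represented by its probe set with the highest mean signal. Results are log2 ratios of Fbln5-/- over WT. The counts used a 2-fold difference and list medians were set beside those of all genes measured. With 1 array per genotype the precision of a ratio is limited by the number of arrays. The members and lists were chosen with earlier results of these data known. Members were named by rule if at least 2-fold different at any measured probe set or if their probe sets lay over 1 apart. The 5 brightest of each main group and all G1 regulators were also named. From each list of other cell cycle genes, up to 3 per direction past 2-fold were named. The remaining members were named after their values were seen. *Nek2*, *Melk*, *Cit*, *Gtse1* and *Cenpn*, all within 2-fold, were named outside the rule. Alternatives were other scalings, filters, treatments of low signals, fold thresholds and choices of probe set. The steps were tested on simulated data, with differences planted only in genes with 1 measured probe set. That simulation did not test the choice among several probe sets of a gene. Python 3.11.15, numpy 2.4.6, pandas 2.3.3 and matplotlib 3.10.9 were used.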

Additional observations from a re-analysis of the deposited data

How the results depend on the processing

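No paired analysis was possible because each genotype has 1 array. Scaling so that the well-measured probe sets (both signals 100 or more) had a median ratio of 1 moved the median of all genes to 0.05, against 0.16. Relative to the median of all genes, list medians stayed lower under every setting run, from −0.40 to −0.29 for mitotic members, from −0.21 to −0.14 for S-phase members and from −0.39 to −0.24 for G1 regulators. The split of lower against higher genes over the chip was 569 and 861, and became 698 and 679 with that scaling, 835 and 779 with the mean over a gene's probe sets and 786 and 782 with their median. The count of S-phase members at least 2-fold lower (1, *E2f1*) was 0 without _x_at, _s_at and _a_at probe sets, where the *E2f1* log2 ratio turned to 0.28, at 3-fold, and where all probe sets had to be past 2-fold, a setting chosen after seeing the data. The S-phase count of higher genes (0) was 1 at 1.5-fold. The count of lower mitotic members (3) was 1 at 3-fold, 5 at 1.5-fold, and 0 of 9 among genes with several probe sets alone, also chosen after seeing the data. Over the chip, 211 of 11934 genes were lower and 316 higher at 3-fold, and 1238 were lower and 2392 higher at 1.5-fold. Among the 4893 genes of the chip with several probe sets, 138 were at least 2-fold lower. The count of higher mitotic members (1, *Foxm1*) was 0 under all 4 other scalings, with 32 added to each signal, with the mean or median over probe sets, at 3-fold, and where all probe sets had to be past 2-fold. The member probe sets at least 2-fold lower (8) numbered 14 with no filter, 3 at 3-fold and 19 at 1.5-fold. Those at least 2-fold higher (1) numbered 3 with no filter, 4 at 1.5-fold and 0 under the 4 scalings, with 32 added and at 3-fold. The shares over all probe sets of the chip were not computed at these settings. *Rrm1* passed 2-fold with the mean or the median of its probe sets (log2 ratio −1.33). Of 554 values of single members under these alternatives, 535 kept their side of 2-fold and moved by less than the SD of 0.52 between probe sets of a gene. Many of these values could not move. The filters kept the same brightest probe set, and for the 21 members with 1 measured probe set the mean and median changed nothing. The count is therefore no measure of how firm the ratios are. The largest moves came with the choice of probe set, as for *E2f1* (from −1.27 to 0.28) and *Mcm2* (from 0.37 to −0.85).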
